A study of Mus musculus with 27 samples.

Results

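The genes described here are the matrix metalloproteinases (Mmp), the secreted ADAMTS proteases and the tissue inhibitors of metalloproteinases (Timp). They were taken from the table of normalized counts by symbol, which gave 46 of 30154 rows: 23 Mmp, 19 Adamts and 4 Timp genes. Of these, 42 passed the filter on low values (at least 10 normalized counts in at least 3 libraries): 20 Mmp, 18 Adamts and all 4 Timp genes. The 4 that did not pass were the collagenase Mmp1a, listed at 0 in every library, its paralog Mmp1b, the matrilysin Mmp7 and Adamts6, with highest values of 60.1, 6.66 and 7.74.

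Matrix metalloproteinases are zinc proteases that cut collagens, proteoglycans and other matrix proteins, and most are made as inactive precursors that other proteases must activate. ADAMTS proteases are related secreted enzymes, among them the aggrecan-cleaving and versican-cleaving proteoglycanases and the procollagen N-proteinases that trim newly made fibrillar collagens. TIMPs bind the active site of these enzymes and block it, and Timp3 also inhibits several ADAMTS members. In bone, Mmp13 and Mmp14 take part in remodelling of the collagen matrix, and in muscle these proteases act on the connective tissue around the fibres.

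The libraries came from hindlimbs of young adult Prx1-CreER/Ai14/Rag1 mice given tamoxifen, in which the Prx1 promoter drives an inducible Cre, so that Prx1-expressing cells and their progeny carry tdTomato, on a Rag1-mutant background that all groups share. Cells that were Prx1+ and CD45- were sorted from skeletal muscle, periosteum and bone marrow of the femur and tibia as P1 (CD105- CD200+), P2 (CD105- CD200-) or P3 (CD105+ with variable CD200), with 3 libraries for each of the 9 combinations. A legend of the study gives the replicates of a group as mice. Neither it nor the labels say whether the groups share mice. Muscle and periosteum were digested with collagenase, muscle for longer, and marrow was flushed, so tissue and isolation cannot be told apart.

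The 27 libraries summed to between 8639660 and 26232142 normalized counts and had 12397 to 21676 genes above 0, and log2 values of replicates correlated at 0.631 to 0.955 across genes. The row for the reporter transgenes was above 0 in every library and lowest in bone marrow P2, where the lineage gene Prrx1 was also low (69.0 to 170, against 1675 to 2413 in bone marrow P1). The P2 libraries of periosteum and bone marrow held much globin RNA: the summed level of 6 erythroid genes was 3410568 to 9417724 and 7958083 to 12605666 there, and 266218 to 455915 in bone marrow P3. Muscle P2 held 1689260 to 1811684 normalized counts of 6 myofibre genes, against 1211 to 2841 in muscle P3. Periosteum P2 replicate 2 stood apart in a list of 10 neutrophil and myeloid genes, with a sum of 116259 against 776 and 1553 in the other replicates. Where the call of a value printed for a member was lost without the 9 P2 libraries, that is given beside it. In these bulk samples fewer cells of a type and less RNA per cell cannot be told apart.

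On chromosome 9, 10 members lie in 1 run (GRCm38, chr9:7272514-7699585, 427 kb), and 7 of these passed the filter. Neighbours in this run had unlike patterns across the groups, as the values below show: the collagenase Mmp13 was highest in periosteum P3 and bone marrow P1, the stromelysin Mmp3 in muscle P3 and the neutrophil collagenase Mmp8 in bone marrow. The 250 bases before the RefSeq start of these 3 genes (build GRCm38.p6, all on the plus strand) are shown because these neighbours are followed in detail, with matches to AP-1 (TGAGTCA), RUNX (TGTGGT) and the TATA box (TATAAA) on either strand in capitals. None of these matches overlap.
Mmp13 (chr9:7272264-7272513): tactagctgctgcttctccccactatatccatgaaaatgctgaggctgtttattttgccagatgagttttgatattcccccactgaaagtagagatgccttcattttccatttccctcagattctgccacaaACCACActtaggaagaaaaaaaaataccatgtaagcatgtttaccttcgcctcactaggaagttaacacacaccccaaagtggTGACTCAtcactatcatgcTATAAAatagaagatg
Mmp3 (chr9:7445572-7445821): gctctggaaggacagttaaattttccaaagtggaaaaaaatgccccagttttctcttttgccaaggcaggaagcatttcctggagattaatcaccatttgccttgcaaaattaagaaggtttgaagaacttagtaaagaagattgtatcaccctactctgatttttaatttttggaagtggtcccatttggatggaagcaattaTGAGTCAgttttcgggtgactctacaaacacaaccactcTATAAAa
Mmp8 (chr9:7558179-7558428): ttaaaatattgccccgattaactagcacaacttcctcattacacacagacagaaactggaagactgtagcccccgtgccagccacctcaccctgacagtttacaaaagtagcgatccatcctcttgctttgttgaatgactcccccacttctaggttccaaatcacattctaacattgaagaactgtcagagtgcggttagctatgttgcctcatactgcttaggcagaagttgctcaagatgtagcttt
The window of Mmp13 held an AP-1 match 35 to 29 bases before the start, written there as its reverse complement TGACTCA, a RUNX match 118 to 113 bases before it and a TATA match. Mmp3 held an AP-1 match 46 to 40 bases before the start and a TATA match, and Mmp8 held none of the 3. Among 32851 RefSeq promoter windows of this length, 4.46% held the AP-1 letters, 14.0% the RUNX letters and 12.4% the TATA letters. Promoters were found for 32 members, of which 7 held AP-1 letters, 6 RUNX letters and 9 TATA letters, and 16 held a GC box (GGGCGG), which 32.7% of all windows held. A member was counted where any of its windows held the letters. Mmp7, Mmp12 and Mmp23 had more than 1 window, so the member counts are not shares of windows. All 7 with AP-1 letters lie in the chromosome 9 run, where all 10 members had a promoter. Among these 7 are Mmp1a, Mmp1b and Mmp7, which did not pass the filter, and Mmp10, which was not called. These matches are letters in a window and say nothing of binding.

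**Figure D1:**
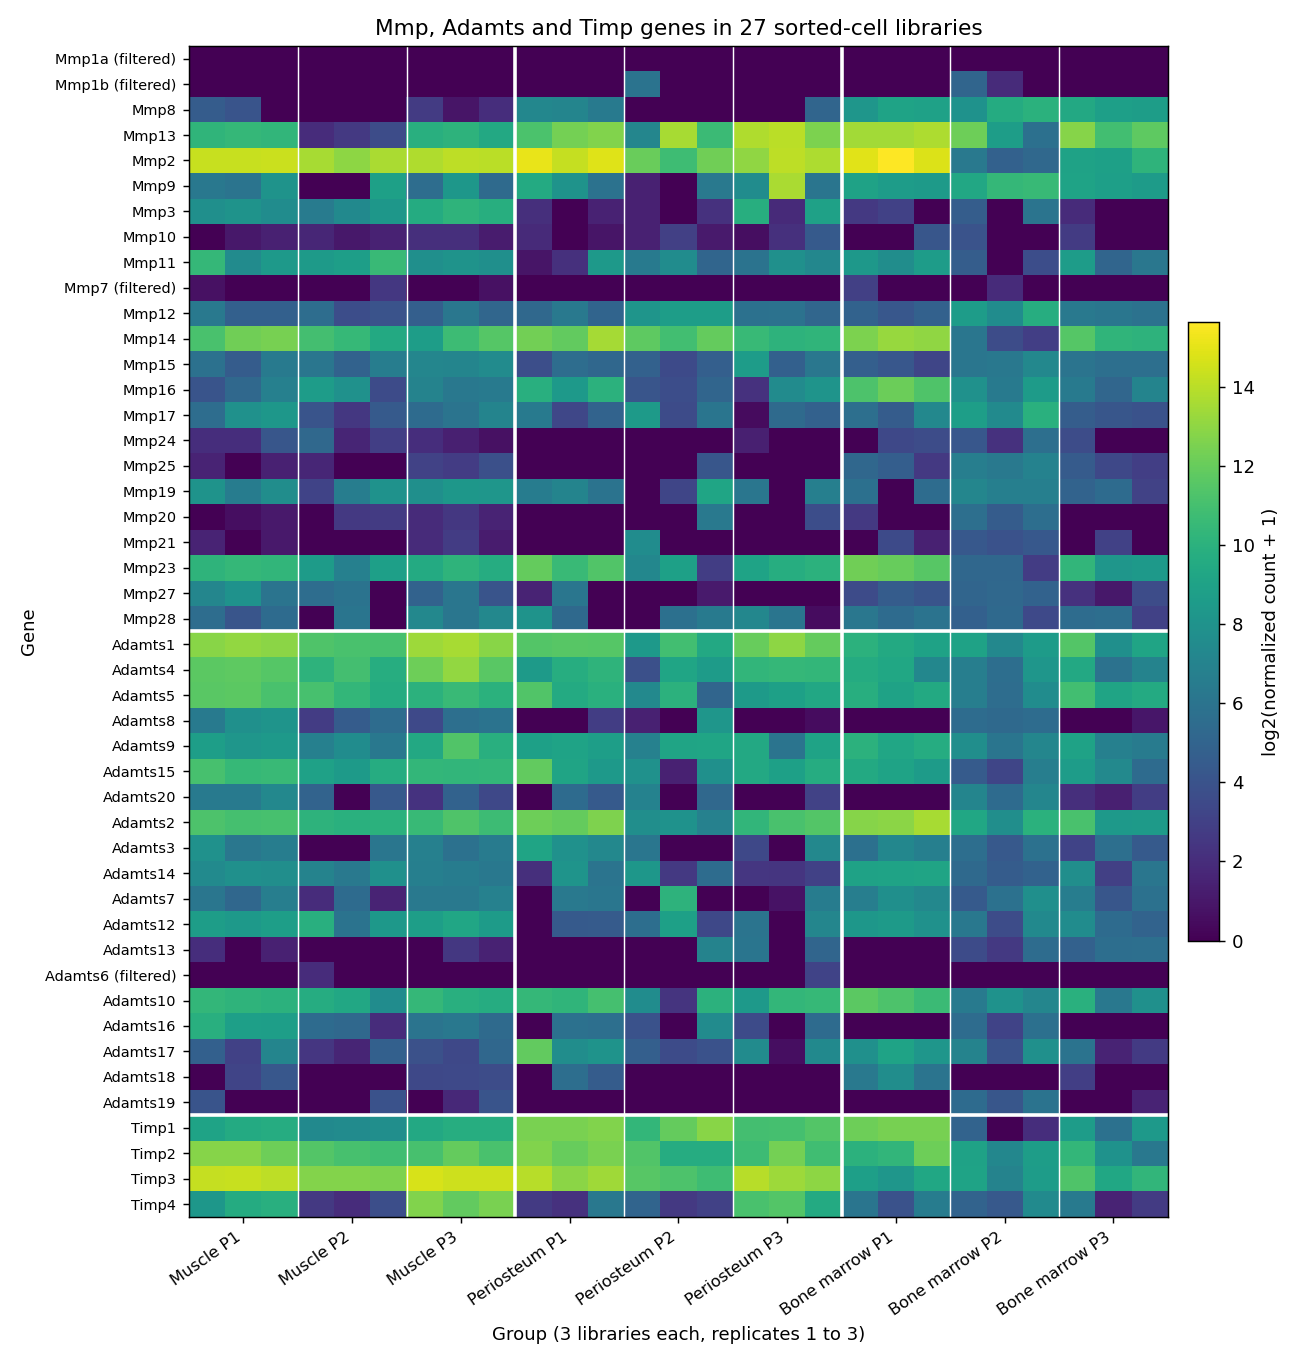
log2(normalized count + 1) of the 46 genes (rows, in order of role, with Mmp, Adamts and Timp genes parted by white lines) in 27 libraries (columns, 3 per group). Mmp2 is bright in every muscle and periosteum library and in bone marrow P1, and dark in bone marrow P2, where its values are 28.0 to 78.2.

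The tissue comparisons addressed how the Prx1-derived cells of muscle, periosteum and bone marrow differ, with each tissue taken as the mean of its P1, P2 and P3 group means on the log2(normalized count + 1) scale. A gene was called where limma's adjusted p was below 0.05 and the log2 fold change was beyond 1.5 either way. Between muscle and periosteum 14 of 42 members were called, 11 higher and 3 lower in muscle, where 20.4% of all 18442 genes tested were called, 17.2% higher and 3.19% lower. Between muscle and bone marrow 19 were called, 13 higher and 6 lower in muscle (21.7% of all genes, 10.9% higher and 10.8% lower). Between periosteum and bone marrow 11 were called, 6 higher and 5 lower in periosteum (20.8% of all genes, 4.01% higher and 16.8% lower). The median log2 fold change over the members was 0.85, 0.67 and -0.12 in these comparisons, beside 0.56, -0.10 and -0.69 over all genes tested. For Mmp8, Mmp24, Mmp27 and Adamts18 some of the averaged groups were listed at 0 in every library, so their fitted values depend on the pseudocount and are no measure of size.

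The all-gene medians show that the values of the tissues were not centred alike. After quantile normalization they were -0.01, -0.13 and -0.10, and the members called were split 8 higher and 6 lower between muscle and periosteum, 14 and 7 between muscle and bone marrow, and 11 and 2 between periosteum and bone marrow. The balance of the split between periosteum and marrow therefore depended on the scaling. Over P1 and P3 libraries alone, 12, 17 and 12 members were called, of which 10, 14 and 7 were the same members. For these other fits, here and below, the share of all genes called is not given. Their counts show only how the member calls moved.

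The comparisons of P1 with the mean of P2 and P3 addressed what the CD105- CD200+ fraction expresses. Over all tissues 16 members were called, 15 higher and 1 lower in P1 (14.5% of all genes, 6.88% higher and 7.67% lower). In bone marrow 17 were called, 13 higher and 4 lower (18.9% of all genes, 7.48% higher and 11.5% lower), and in periosteum 9, with 8 higher and 1 lower (9.16% of all genes, 4.32% higher and 4.84% lower). In muscle limma called 0 members, where 1.05% of all genes were called. A fit of the muscle libraries alone called more than this, as given with the other settings below. The median over the members was 0.79 for the tissues pooled, and 0.74, 0.72 and 1.07 within muscle, periosteum and marrow, beside -0.12, 0, 0 and -0.39 over all genes tested. Quantile normalization split the periosteum calls 8 higher and 0 lower. A fit of the periosteum libraries alone called 1 member there, Adamts2, so the calls of Mmp2 (adjusted p = 0.0660), Mmp8, Mmp16 (0.260), Mmp23 (0.341), Adamts3 (0.379), Adamts17 (0.387), Adamts18 and Timp4 (0.299) were not made in it. Without the P2 libraries, so with P1 set against P3 alone, 13 members were called over the tissues pooled, 0 in muscle, 5 in periosteum and 12 in marrow, of which 11, 0, 3 and 11 were the same members. These comparisons and those between tissues share libraries, so they are not independent of each other.

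Whether the change in P1 differed between tissues was tested directly. Taken as P1 against P2 and P3 in bone marrow minus the same in muscle, 10 members were called, 6 with a larger and 4 with a smaller change in marrow (7.41% of all genes, 3.24% and 4.16%), and 7 and 2 after quantile normalization. Without the P2 libraries 5 were called, 4 of them the same members. Taken as periosteum minus muscle, limma called 0 members (2.44% of all genes). Among P1 libraries alone, 6 members were called between muscle and periosteum, 5 higher and 1 lower in muscle (4.9% of all genes, 4.34% higher and 0.559% lower). Between muscle and bone marrow 12 were called, 6 each way (8.34% of all genes, 5.4% higher and 2.94% lower in muscle). Between periosteum and bone marrow 2 were called, 1 each way (4.87% of all genes, 1.91% higher and 2.96% lower in periosteum), a number near the background. The first split became 5 and 4 after quantile normalization, the second 9 and 2 after rescaling each library to an equal total, and the last 2 and 1 after that rescaling.

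**Figure D2:**
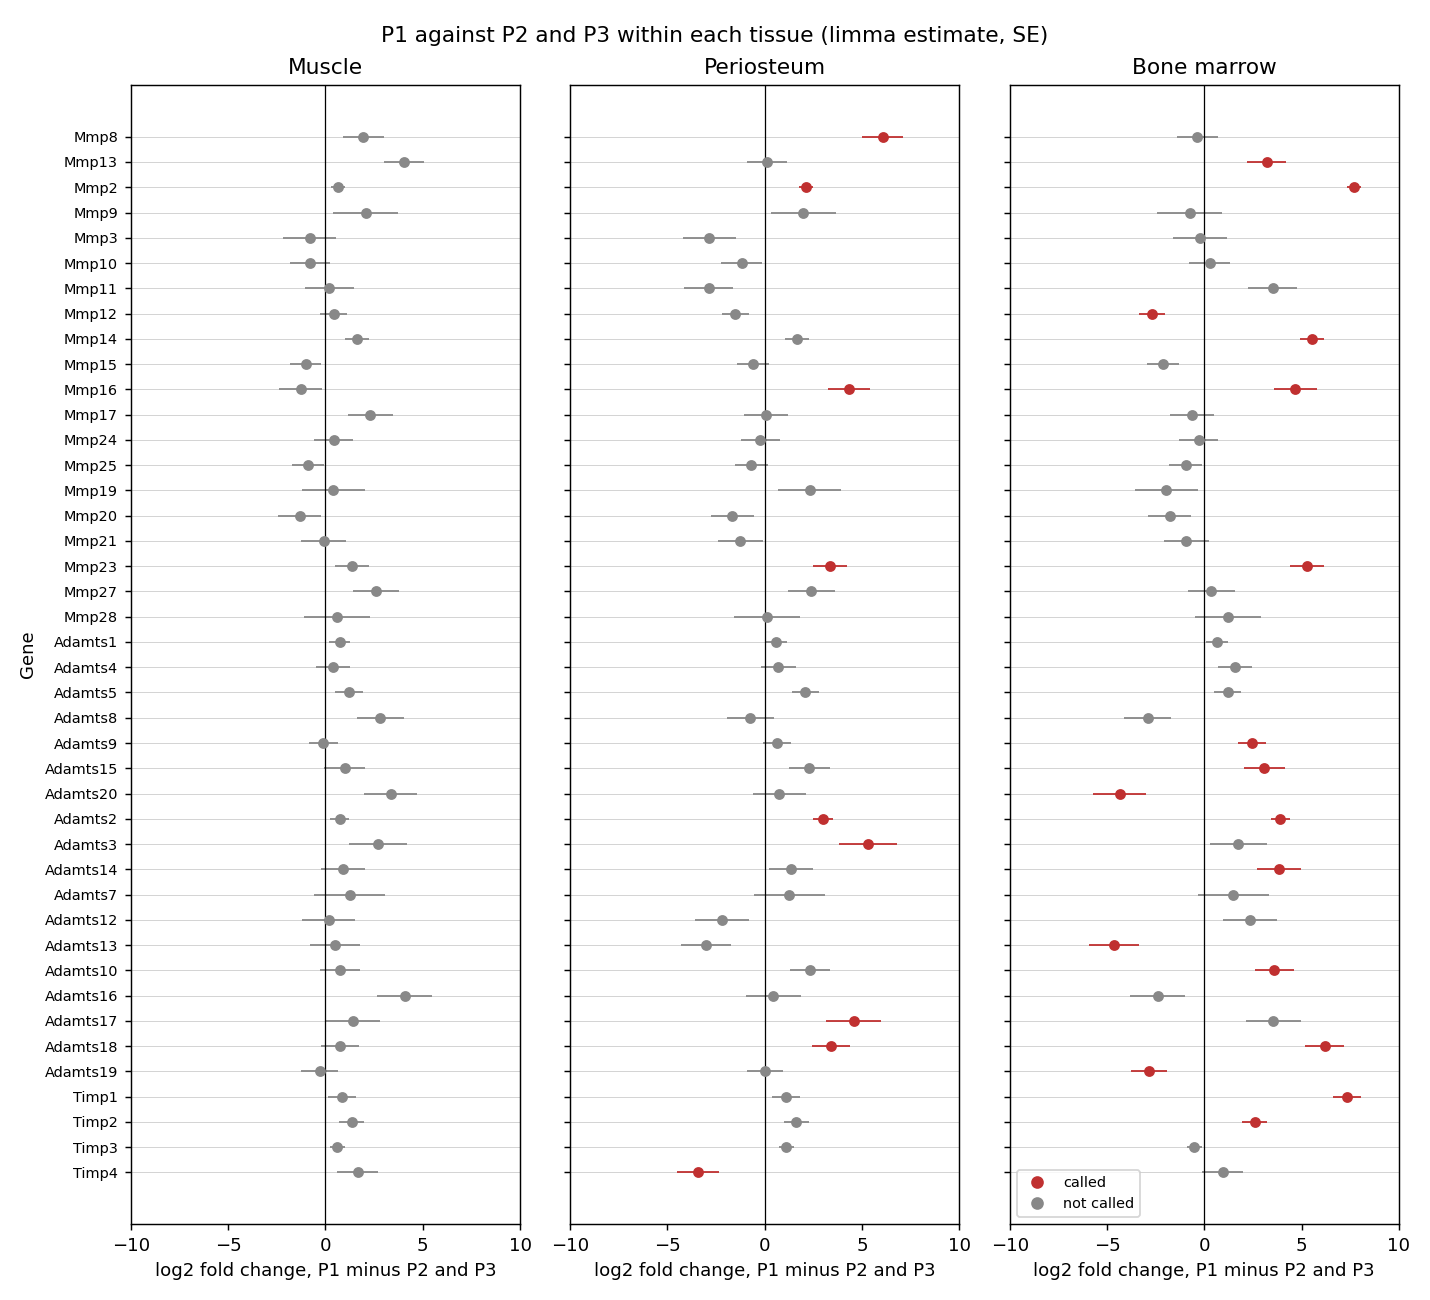
log2 fold change of P1 against P2 and P3 (x axis, limma estimate with its SE, log2 units) for the 42 members that passed the filter (y axis) in muscle, periosteum and bone marrow, with called members in red. Muscle has 0 called members, periosteum 9 and bone marrow 17, and Mmp2 in bone marrow is at 7.69.

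Mmp2, the gelatinase that cuts denatured collagen and basement membrane collagen, was the highest member per kilobase of exon in 5 of 9 groups. Its normalized counts in bone marrow P1 were 31353, 50508 and 28118, in bone marrow P2 78.2, 28.0 and 38.6, and in bone marrow P3 520, 464 and 1162. Every marrow P1 library was thus far above every other marrow library. Periosteum held 35765, 19758 and 29642 in P1, 4175, 1742 and 4753 in P2, and 8443, 17173 and 13372 in P3, and P1 did not overlap the others. Muscle P1 also lay above the rest, by less, with 20542, 20301 and 20928 in P1, 12448, 7969 and 12927 in P2, and 13740, 17413 and 16183 in P3. A list of 7 osteoblast and osteocyte genes was also highest in bone marrow P1, with sums of 934784 to 1339577. It summed to 1356 to 3737 in marrow P2 and 16539 to 30483 in marrow P3. Its part in the marrow P1 results of Mmp2 and of the other members below was not tested.

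The log2 fold change of Mmp2 in P1 was 7.69 (SE 0.35, adjusted p = 1.65e-13) in bone marrow and 3.49 (SE 0.20, adjusted p = 1.21e-11) over all tissues. The value in periosteum was 2.11 (SE 0.35, adjusted p = 0.000235), and in muscle it was 0.66 (SE 0.35, adjusted p = 0.595). The change was larger in marrow than in muscle by 7.03 (SE 0.49, adjusted p = 2.71e-09). Without the P2 libraries the value was 5.76 in marrow (adjusted p = 2.99e-08), and in periosteum it was 1.14 and no longer called (adjusted p = 0.0520). Averaged over its 3 subpopulations on the log2 scale, muscle was above bone marrow by 3.90 (SE 0.23, adjusted p = 6.24e-12) and periosteum by 3.36 (SE 0.23, adjusted p = 1.43e-10), although marrow P1 held the highest mean of any group.

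Mmp14, the membrane-bound protease that activates the Mmp2 precursor, moved in the same direction in marrow. It was at 5979, 9690 and 8234 in bone marrow P1, at 69.1, 11.2 and 6.42 in P2 and at 2960, 1192 and 1081 in P3, with no overlap between P1 and the rest. P1 was higher by 5.52 (SE 0.61, adjusted p = 5.19e-07) in marrow and by 2.93 (SE 0.35, adjusted p = 1.49e-06) with the tissues pooled. Without the P2 libraries it was 2.32 in marrow (adjusted p = 0.0201).

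In muscle Mmp14 was at 2213, 4822 and 5462 in P1, 1998, 1402 and 733 in P2, and 418, 1693 and 2850 in P3, so the subpopulations overlapped. In periosteum it was 5020, 3737 and 11951 in P1, 3490, 1894 and 3862 in P2, and 1478, 1099 and 1205 in P3. Its tissue calls rested on the P2 libraries: the log2 fold change of muscle against bone marrow was 1.60 with all libraries (SE 0.41, adjusted p = 0.00443) and -0.66 without P2 (adjusted p = 0.331). For periosteum against marrow it was 2.21 with all libraries (SE 0.41, adjusted p = 0.000329) and -0.34 without P2 (adjusted p = 0.624). The muscle call was also lost without muscle P2 replicate 1, muscle P3 replicate 3, or bone marrow P2 replicate 2 or 3, where the log2 fold change was below the threshold and as low as 1.38.

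Mmp16, another membrane-type member that can activate Mmp2, was at 2485, 4448 and 2521 in P1, 234, 83.7 and 379 in P2, and 82.1, 34.1 and 129 in P3 of bone marrow. Periosteum held 936, 354 and 1059 in P1, 16.5, 12.1 and 33.6 in P2, and 3.71, 186 and 273 in P3, and muscle 15.7, 37.8 and 113 in P1, 401, 241 and 11.1 in P2, and 127, 76.9 and 86.5 in P3. P1 lay above P2 and P3 in marrow and periosteum and not in muscle. Marrow P1 was higher than the rest of marrow by 4.67 (SE 1.10, adjusted p = 0.00369), and the log2 fold change of muscle P1 against marrow P1 was -6.17 (SE 1.27, adjusted p = 0.00191). In periosteum P1 was higher by 4.32 (SE 1.10, adjusted p = 0.0128), lost without P1 replicate 1 or 3 (adjusted p = 0.0594 and 0.0566) and against P3 alone (adjusted p = 0.0905). The change in P1 was larger in marrow than in muscle by 5.93 (SE 1.55, adjusted p = 0.0196), a call lost without muscle P1 replicate 1 or bone marrow P1 replicate 2 (adjusted p = 0.0730 and 0.0629).

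The remaining membrane-type genes were low. Mmp15 had values of 8.58 to 391 and was not called in any comparison. Mmp17, a glycosylphosphatidylinositol-anchored member, was not called either, with 47.7, 234 and 302 in P1, 15.7, 4.88 and 20.5 in P2, and 43.1, 64.0 and 129 in P3 of muscle, 83.9, 8.97 and 31.1 in P1, 361, 11.1 and 67.3 in P2, and 0.400, 41.9 and 28.0 in P3 of periosteum and 50.3, 22.8 and 158 in P1, 440, 175 and 968 in P2, and 23.7, 17.1 and 14.5 in P3 of marrow, so that libraries of 1 group differed widely. Mmp25, the leukocyte membrane-type protease, was at 78.8 to 123 in bone marrow P2 and 5.15 to 35.7 in bone marrow P1, and was listed at 0 in all periosteum P1 libraries, which differed from marrow P1 (adjusted p = 0.0109, lost without bone marrow P1 replicate 1 or 2, at 0.0665 and 0.0554). Mmp24 did not exceed 50.6 in any library and was called higher in muscle than in periosteum (2.32, SE 0.66, adjusted p = 0.0125). That call was not made without the P2 libraries (adjusted p = 0.103). Exons of BC029722 on the opposite strand cover 13.6% of the exon bases of Mmp24, where reads of the 2 genes cannot be told apart.

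**Figure D3:**
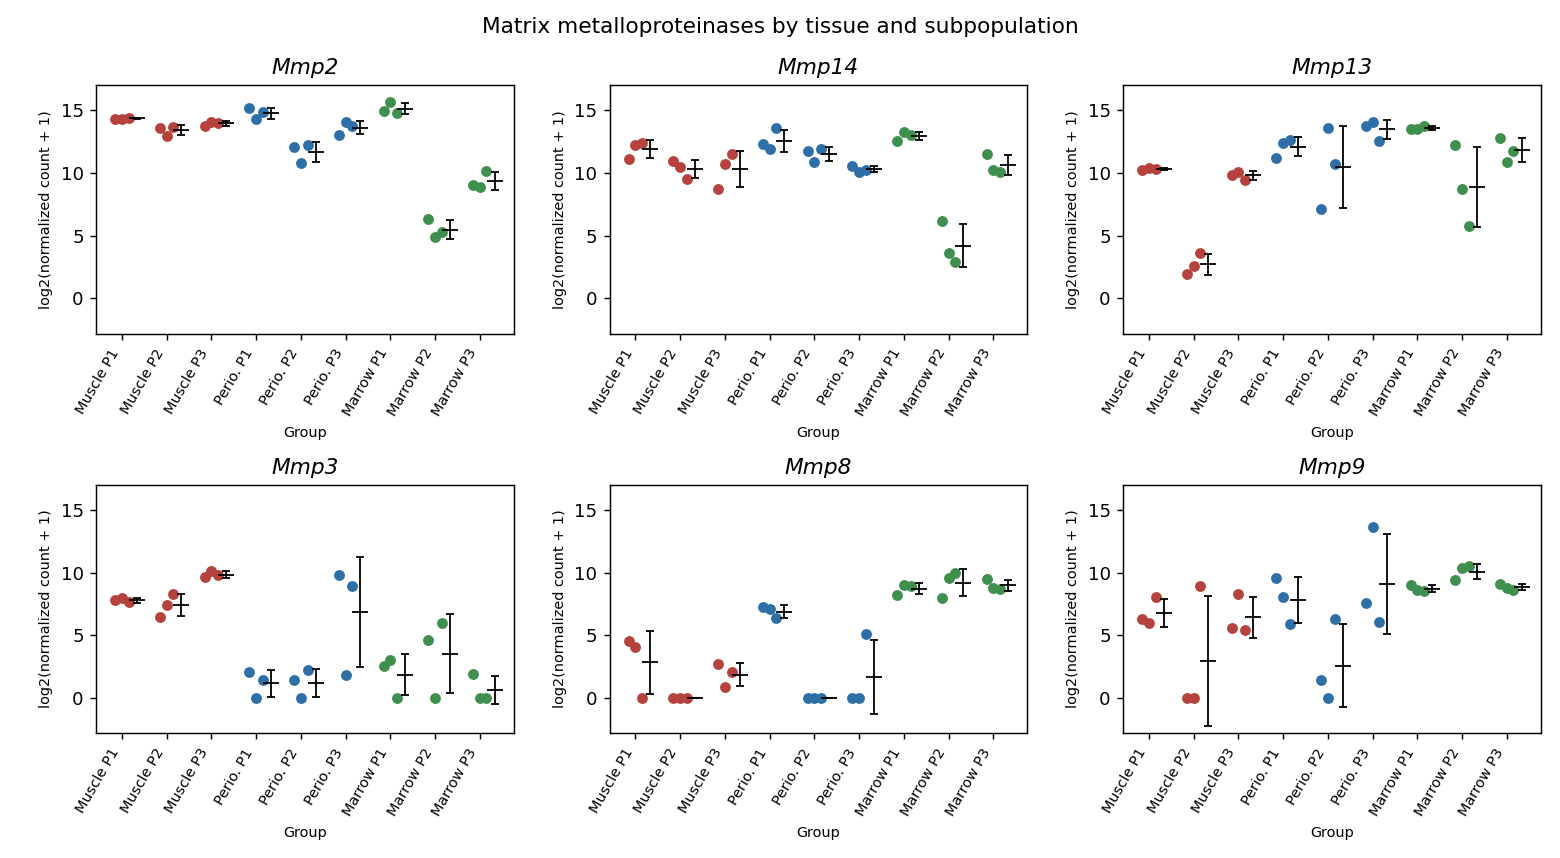
log2(normalized count + 1) (y axis) of 6 matrix metalloproteinases in 9 groups (x axis), with 1 point per library in red (muscle), blue (periosteum) or green (bone marrow), and the mean with its SD in black beside them. Mmp2 and Mmp14 drop in bone marrow P2 and P3, Mmp13 drops in muscle P2 and Mmp9 has 1 periosteum P3 library at 12783.

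Mmp13, the main interstitial collagenase of mouse bone and cartilage, was at 1174, 1360 and 1261 in muscle P1, 2.89, 5.01 and 11.3 in muscle P2, and 925, 1094 and 692 in muscle P3. In periosteum it was 2367, 5354 and 6412 in P1, 141, 12479 and 1628 in P2, and 13824, 16804 and 6088 in P3. In bone marrow it was 11214, 11426 and 13600 in P1, 4692, 412 and 54.6 in P2, and 7176, 1899 and 3493 in P3. Muscle P2 held the lowest values of all groups, and P2 of periosteum and marrow spread the most.

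On the log2 scale the fold change of Mmp13 was -4.40 for muscle against periosteum (SE 0.68, adjusted p = 5.42e-05) and -3.82 for muscle against bone marrow (SE 0.68, adjusted p = 0.000133). Over the tissues pooled P1 was higher by 2.45 (SE 0.59, adjusted p = 0.00435), and by 0.29 without P2 (adjusted p = 0.552). In muscle, P1 did not overlap P2 and P3 but the adjusted p was 0.0503, and the difference from P3 alone was 0.51 (adjusted p = 1). In bone marrow P1 was higher by 3.20 (SE 1.02, adjusted p = 0.0292), which was lost without any 1 of the P1 libraries, P2 replicate 3 or P3 replicate 2, at adjusted p of 0.0631 to 0.0952. The list of 7 osteoblast and osteocyte genes summed to 934784 to 1339577 in bone marrow P1 and 249257 to 491513 in periosteum P1. It summed to 30413 to 75605 in periosteum P3, where the mean of Mmp13 was highest. A list of 6 chondrocyte genes summed to 71847 to 429376 in P1, 323641 to 748794 in P2 and 14649 to 100514 in P3 of periosteum, and to 89291 to 172151 in bone marrow P1. It summed to 101 to 785 and 412 to 7974 in marrow P2 and P3, and in muscle to 2501 to 17176 in P1, 361 to 900 in P2 and 471 to 2941 in P3. The part of either list in the Mmp13 results was not tested.

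Mmp8, the collagenase known from neutrophil granules, was at 297, 524 and 484 in bone marrow P1, at 252, 779 and 1024 in P2 and at 703, 442 and 416 in P3. In muscle it was 22.8, 15.7 and 0 in P1, 0, 0 and 0 in P2, and 5.46, 0.818 and 3.21 in P3, so no library of muscle reached any of marrow. The log2 fold change against marrow was -7.38 for muscle (SE 0.70, adjusted p = 1.57e-08) and -6.10 for periosteum (SE 0.70, adjusted p = 6.68e-07), with no overlap in either. The neutrophil and myeloid list summed to 13628 to 260131 in marrow and 199 to 923 in muscle, and its part in the marrow values of Mmp8 was not tested.

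In periosteum Mmp8 was at 152, 136 and 81.1 in P1, listed at 0 in every P2 library, and at 0, 0 and 33.3 in P3. P1 was higher by 6.05 (SE 1.05, adjusted p = 0.000407), a call that a fit of the periosteum libraries alone did not make (adjusted p = 0.0905). With every periosteum P2 library listed at 0, the value of 6.05 depends on the pseudocount and is no measure of size. In those P1 libraries the neutrophil and myeloid list summed to 39.7 to 130, lower than in any periosteum P2 or P3 library. Its part in the periosteum values of Mmp8 was not tested. Between the P1 cells of muscle and marrow the log2 fold change was -5.85 (SE 1.21, adjusted p = 0.00208).

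Mmp9, the gelatinase of osteoclasts and myeloid cells, was at 517, 390 and 365 in P1, 667, 1328 and 1454 in P2, and 539, 446 and 383 in P3 of bone marrow. In muscle it was 76.4, 63.1 and 259 in P1, 0, 0 and 477 in P2, and 47.7, 312 and 41.1 in P3. Periosteum held 739, 261 and 57.9 in P1, 1.67, 0 and 78.0 in P2, and 195, 12783 and 65.5 in P3, so that 1 library held by far the highest value of all 27. In that library the osteoclast gene Acp5 was at 1.78, the osteoclast list summed to 167 and the neutrophil and myeloid list to 761. None of these was above the range of the other periosteum P3 libraries, and the part of these cell types in that Mmp9 value was not tested. On the log2 scale the fold change of muscle against marrow was -3.82 (SE 1.11, adjusted p = 0.0118), which was not called without the P2 libraries (-2.17, adjusted p = 0.159).

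Mmp3, the stromelysin that cuts proteoglycans and activates other Mmp precursors, was highest in muscle. It was at 220, 258 and 197 in muscle P1, 89.5, 172 and 306 in P2, and 790, 1124 and 881 in P3. The libraries of periosteum held 3.33, 0 and 1.77 in P1, 1.68, 0 and 3.64 in P2, and 904, 2.62 and 485 in P3, so P3 was split. In bone marrow it was 5.06, 7.04 and 0 in P1, 23.8, 0 and 63.6 in P2, and 2.84, 0 and 0 in P3, below every muscle library. Muscle was higher than marrow by 6.33 (SE 0.92, adjusted p = 9.57e-06) and higher than periosteum by 5.26 (SE 0.92, adjusted p = 0.000199). In P1 cells muscle was higher than periosteum by 6.62 (SE 1.59, adjusted p = 0.0140), lost without muscle P1 replicate 2 (adjusted p = 0.0532), and than marrow by 5.94 (SE 1.59, adjusted p = 0.0167), lost without muscle P1 replicate 1 or 2 or bone marrow P1 replicate 3 (adjusted p of 0.0524 to 0.107).

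Mmp11, a stromelysin-like protease of stromal cells, was at 1333, 183 and 342 in muscle P1, 372, 424 and 1542 in P2, and 218, 257 and 218 in P3. In periosteum it was 0.813, 3.40 and 352 in P1, 83.2, 191 and 33.9 in P2, and 61.3, 231 and 149 in P3, and in marrow 325, 204 and 398 in P1, 23.9, 0 and 11.7 in P2, and 403, 33.3 and 72.1 in P3. Muscle was higher than periosteum by 2.90 (SE 0.84, adjusted p = 0.0140) and than marrow by 2.76 (SE 0.84, adjusted p = 0.0155). Neither call was made without the P2 libraries (2.90 with adjusted p = 0.0699, and 0.88 with adjusted p = 0.634). Mmp10, the other stromelysin, did not exceed 20.5 and was not called.

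Mmp12, the macrophage metalloelastase, had its highest values in P2, at 286, 415 and 411 in periosteum and 405, 191 and 836 in bone marrow. It was at 29.7, 17.8 and 28.3 in bone marrow P1 and 77.5, 69.5 and 57.1 in P3, so P1 was below both. The log2 fold change of marrow P1 was -2.69 (SE 0.69, adjusted p = 0.00666), and against P3 alone it was -1.42 (adjusted p = 0.288). Its exons share 157 bases with Mmp1b on the opposite strand, and reads of the 2 genes cannot be told apart there because the library kit keeps no strand.

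Of the other Mmp genes, Mmp23, a small membrane-anchored member, was highest in P1 of bone marrow and of periosteum. It was at 4929, 4143 and 2995 in P1, 36.2, 37.0 and 5.77 in P2, and 1255, 294 and 330 in P3 of bone marrow. Periosteum held 3980, 1519 and 2699 in P1, 148, 477 and 6.03 in P2, and 535, 846 and 1052 in P3, and muscle 1149, 1369 and 1259 in P1, 373, 109 and 447 in P2, and 754, 1158 and 821 in P3. P1 lay above the other libraries in both bone compartments. P1 was higher by 5.26 in marrow (SE 0.87, adjusted p = 0.000106) and by 3.35 in periosteum (SE 0.87, adjusted p = 0.0145), the latter lost without periosteum P1 replicate 1 (3.02, adjusted p = 0.0800). Mmp27 was higher in muscle than in periosteum by 4.33 (SE 0.80, adjusted p = 0.000377), with values up to 250 in muscle P1. Mmp19, Mmp20, Mmp21 and Mmp28 were not called in any comparison.

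Among the 7 proteoglycanases, which cleave aggrecan or versican, 5 were called higher in muscle than in bone marrow (10.9% of all genes) and 3 higher than in periosteum (17.2% of all genes), and 0 were called lower in either comparison. Adamts1, the most abundant of them per kilobase in muscle, was at 7493, 8710 and 7706 in muscle P1, 2571, 2261 and 2164 in P2, and 10556, 12386 and 7424 in P3. In bone marrow it was 1059, 724 and 517 in P1, 510, 159 and 377 in P2, and 2746, 222 and 556 in P3, and only the highest of these reached the lowest muscle libraries. Muscle was higher than marrow by 3.38 (SE 0.37, adjusted p = 1.61e-07) and P1 of muscle higher than P1 of marrow by 3.43 (SE 0.64, adjusted p = 0.000746). Periosteum, with 2779, 3044 and 2909 in P1, 333, 1894 and 685 in P2, and 3996, 7880 and 3978 in P3, was also higher than marrow, by 2.03 (SE 0.37, adjusted p = 0.000286).

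Adamts4 was at 3325, 3435 and 2914 in muscle P1, 1111, 1965 and 837 in P2, and 4542, 8607 and 3109 in P3. Every one of these was above every bone marrow library, which held 778, 628 and 152 in P1, 101, 49.1 and 295 in P2, and 685, 58.5 and 129 in P3. Muscle was higher than marrow by 3.72 (SE 0.59, adjusted p = 3.28e-05) and than periosteum by 2.40 (SE 0.59, adjusted p = 0.00476), where the values were 368, 835 and 1123 in P1, 13.0, 577 and 373 in P2, and 1252, 1362 and 1312 in P3.

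Adamts5, the neighbour of Adamts1 on chromosome 16 (the pair spans chr16:85793827-85901828), was at 3097, 3290 and 2286 in P1, 2198, 1299 and 773 in P2, and 1048, 1519 and 1014 in P3 of muscle. Periosteum held 2700, 745 and 986 in P1, 162, 1062 and 32.7 in P2, and 357, 476 and 673 in P3, and marrow 897, 511 and 717 in P1, 103, 47.9 and 191 in P2, and 1872, 555 and 739 in P3. Muscle was higher than marrow by 2.04 (SE 0.47, adjusted p = 0.00192) and than periosteum by 1.77 (SE 0.47, adjusted p = 0.00842), and the latter was 1.37 without periosteum P2 replicate 3 and no longer called. Without the P2 libraries both values were below the fold threshold, at 1.20 and 1.23.

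Adamts15 was at 2163, 1395 and 1510 in P1, 483, 372 and 824 in P2, and 1317, 1244 and 1321 in P3 of muscle. Periosteum held 3697, 552 and 357 in P1, 239, 1.72 and 228 in P2, and 703, 476 and 828 in P3, and marrow 731, 539 and 381 in P1, 21.2, 8.45 and 100 in P2, and 392, 163 and 43.5 in P3. Muscle was higher than marrow by 3.03 (SE 0.70, adjusted p = 0.00189), and most muscle libraries lay above every marrow library. Adamts9 was at 431, 295 and 348 in P1, 113, 194 and 76.7 in P2, and 695, 2707 and 935 in P3 of muscle, with the highest values in P3. Periosteum held 469, 527 and 435 in P1, 115, 556 and 577 in P2, and 693, 63.2 and 537 in P3, and marrow 1048, 599 and 816 in P1, 207, 64.9 and 143 in P2, and 501, 111 and 90.4 in P3. It was called in 1 comparison, P1 of marrow, where P1 lay above the rest (2.45, SE 0.73, adjusted p = 0.0196). That call was lost without bone marrow P1 replicate 1 or 3 (adjusted p = 0.0905 and 0.0660) and against P3 alone (adjusted p = 0.0964).

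Adamts8 and Adamts20 were above 0 in every library of muscle P1 and listed at 0 in bone marrow P1. Adamts8 was at 87.5, 229 and 276 there and listed at 0 in all P1 libraries of bone marrow, a difference with adjusted p = 0.000735. In periosteum P1 it was 0, 0 and 6.09, below muscle P1, which was higher by 6.53 (SE 1.39, adjusted p = 0.00581). That call was lost in a fit of the compared groups alone (adjusted p = 0.0527). The highest Adamts8 value of all libraries was 290, in periosteum P2 replicate 3, beside 1.66 and 0 in the other replicates. Marrow P2 held 45.3, 39.4 and 45.2 of Adamts8. Adamts20 was at 81.1, 85.6 and 153 in muscle P1 and listed at 0 in all marrow P1 libraries (adjusted p = 0.00603). Marrow P2 held 140, 43.0 and 146 of Adamts20, and marrow P3 3.25, 1.55 and 6.10. P1 of marrow therefore lay below P2 and P3 (adjusted p = 0.0257), a call lost without any 1 of the P1 libraries or P3 replicate 3 and, with adjusted p = 0.380, without P2. A list of 3 muscle satellite cell genes summed to 1170 to 1462 in muscle P1 and 1009 to 1069 in muscle P2, and to 20.5 to 34.5 in muscle P3. A list of 3 Schwann cell genes summed to 589 to 869 in muscle P1, 29.8 to 36.8 in P2 and 73.6 to 370 in P3, and to 1.14 to 31.1 in bone marrow P1. The part of either list in these results was not tested.

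Adamts2, the main procollagen I N-proteinase, was at 7151, 7706 and 12191 in bone marrow P1, 634, 210 and 1001 in P2, and 2274, 352 and 365 in P3. Periosteum held 4654, 3828 and 6242 in P1, 214, 250 and 115 in P2, and 1253, 2220 and 2835 in P3. In both tissues P1 lay above every other library. Muscle P1 (2502, 2110 and 2193) lay above muscle P2 (1084, 952 and 1007) and overlapped muscle P3 (1460, 2572 and 1660). On the log2 scale the fold change in P1 was 3.91 in marrow (SE 0.50, adjusted p = 4.29e-06) and 2.99 in periosteum (SE 0.50, adjusted p = 0.000290). Against P3 alone it was 3.72 in marrow (adjusted p = 0.000261) and 1.27 in periosteum (adjusted p = 0.185).

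Of the other procollagen N-proteinases, Adamts14 was at 519, 541 and 556 in P1, 39.6, 22.2 and 28.7 in P2, and 206, 6.64 and 68.0 in P3 of bone marrow. Periosteum held 3.27, 269 and 62.6 in P1, 307, 5.08 and 45.2 in P2, and 4.44, 4.31 and 7.23 in P3, and muscle 181, 230 and 211 in P1, 126, 78.5 and 227 in P2, and 105, 95.3 and 75.7 in P3. Marrow P1 was higher than the rest of marrow by 3.83 (SE 1.14, adjusted p = 0.0196), lost without any 1 of its libraries or P3 replicate 2 (adjusted p of 0.0536 to 0.0684) and against P3 alone (3.50, adjusted p = 0.0929). Adamts3 was at 548, 235 and 159 in periosteum P1, and the other periosteum libraries ran from 0 to 154. Its log2 fold change there was 5.30 (SE 1.47, adjusted p = 0.0222), lost without periosteum P1 replicate 1 or 2 and, against P3 alone, at adjusted p = 0.0535. All 3 genes of this role were called higher in P1 with the tissues pooled, Adamts3 not without the P2 libraries (adjusted p = 0.0507), and Adamts14 with an adjusted p of 0.0305 that was 0.0522 to 0.0846 without 1 of 7 P1 libraries (muscle replicate 2 or 3, periosteum replicate 2 or 3, any of marrow). The type I collagen genes Col1a1 and Col1a2, whose products these enzymes trim, were higher in P1 by 4.97 (SE 0.28, adjusted p = 9.54e-12) and 4.58 (SE 0.24, adjusted p = 3.34e-12).

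**Figure D4:**
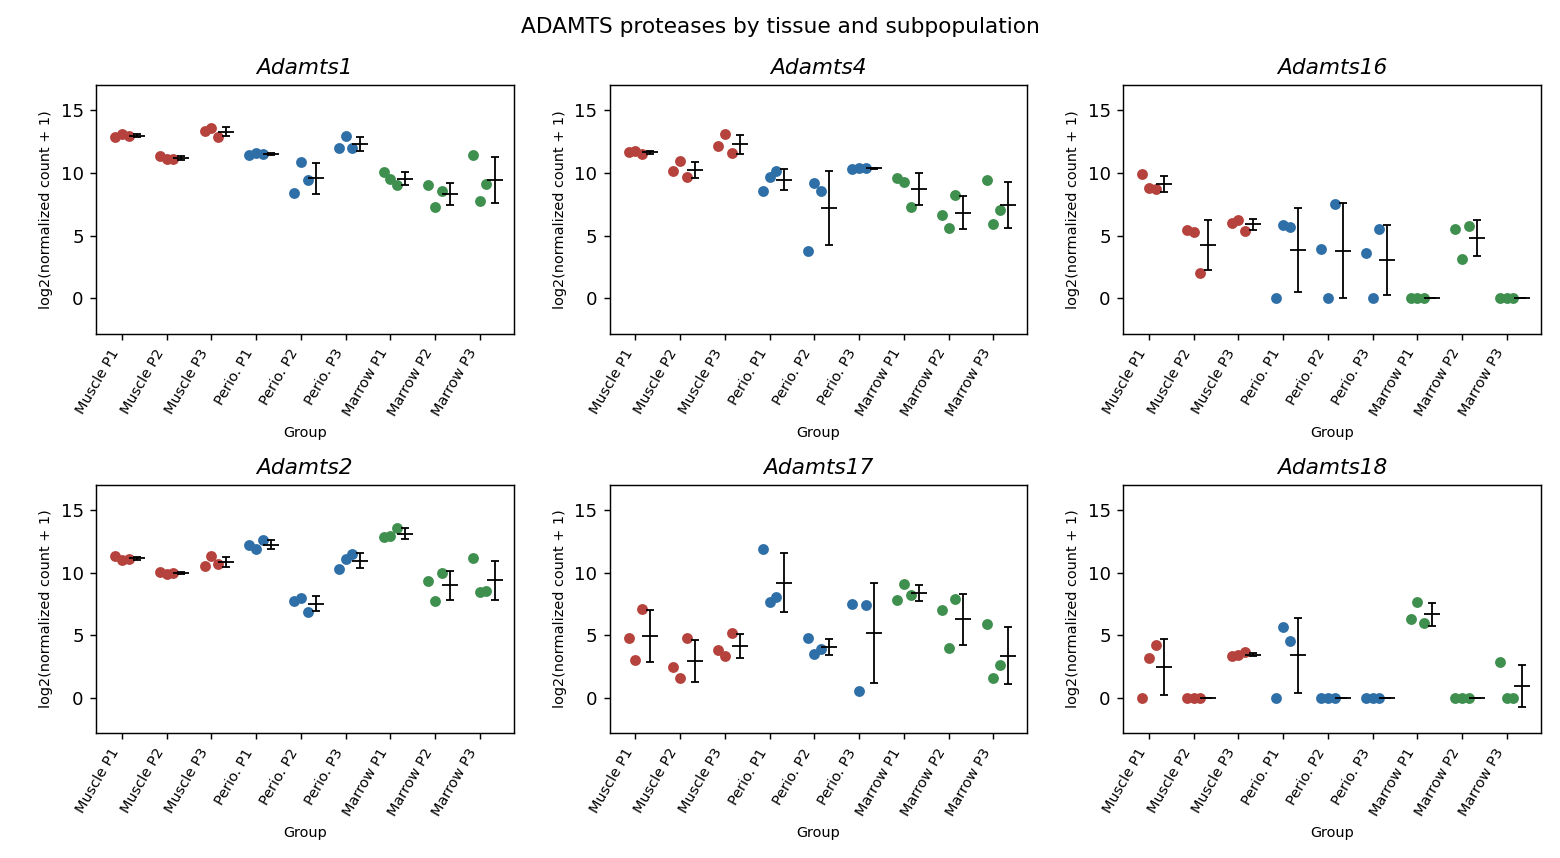
log2(normalized count + 1) (y axis) of 6 ADAMTS genes in 9 groups (x axis), with 1 point per library in red (muscle), blue (periosteum) or green (bone marrow), and the mean with its SD in black beside them. Adamts1 and Adamts4 are high in muscle, Adamts16 is at 0 in the P1 and P3 libraries of bone marrow, and Adamts2, Adamts17 and Adamts18 are high in P1 of periosteum or marrow.

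Adamts12, which cleaves cartilage oligomeric matrix protein, was at 408, 346 and 424 in muscle P1 and 0, 20.7 and 21.9 in periosteum P1. In P1 cells muscle was higher than periosteum by 5.63 (SE 1.59, adjusted p = 0.0378). That call was lost without any 1 muscle P1 library or periosteum P1 replicate 1, at adjusted p of 0.0958 to 0.222. A fit of the compared groups alone (adjusted p = 0.119), no filter (0.0611) or a pseudocount of 0.1 (0.0738) also lost it. Over the 3 subpopulations muscle was higher by 4.06 (SE 0.92, adjusted p = 0.00236). Adamts7, with the same substrate, reached 1078 in periosteum P2 replicate 2, beside 0 and 0 in the other replicates, and was not called.

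Adamts16 was at 939, 445 and 429 in P1, 43.3, 38.5 and 2.99 in P2, and 62.2, 76.9 and 41.3 in P3 of muscle, and at 0, 56.2 and 51.9 in P1, 14.1, 0 and 183 in P2, and 11.1, 0 and 44.0 in P3 of periosteum. Marrow P2 held 44.9, 7.92 and 52.4. It was listed at 0 in all P1 and P3 libraries of bone marrow, and the P1 libraries of muscle and marrow differed with adjusted p = 0.000514. Within muscle its P1 values did not overlap the rest, and the adjusted p was 0.227. Adamts10, a microfibril-associated member, was at 3289, 2436 and 1620 in P1, 84.5, 248 and 146 in P2, and 970, 73.8 and 230 in P3 of marrow. Periosteum held 1352, 1182 and 2047 in P1, 191, 4.21 and 1064 in P2, and 346, 1319 and 1440 in P3, and muscle 1296, 1122 and 1073 in P1, 810, 646 and 195 in P2, and 1367, 912 and 801 in P3. Marrow P1 was above the rest of marrow by 3.60 (SE 1.02, adjusted p = 0.0141), lost without P1 replicate 1 or 2 (adjusted p = 0.0691 and 0.0546).

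Adamts17 was at 3787, 202 and 265 in P1, 26, 10.7 and 14.5 in P2, and 183, 0.478 and 170 in P3 of periosteum. Muscle held 26.3, 7.04 and 135 in P1, 4.49, 2.09 and 27 in P2, and 13.4, 9.35 and 35.5 in P3, and marrow 231, 544 and 289 in P1, 128, 14.6 and 232 in P2, and 60.6, 2 and 5.18 in P3. Periosteum P1 was higher by 4.57 (SE 1.41, adjusted p = 0.0401), and without its replicate 1 by 3.23 (adjusted p = 0.245). The call was also lost without periosteum P1 replicate 3, P2 replicate 2 or P3 replicate 2, the lowest adjusted p being 0.0553. It was not made against P3 alone (4.03, adjusted p = 0.190), nor after quantile normalization (adjusted p = 0.0707), with no filter (0.0653) or with a pseudocount of 0.1 (0.0611). Adamts18 was at 78.1, 205 and 63.4 in bone marrow P1, and apart from 6.45 in P3 replicate 1 it was listed at 0 in the rest of marrow. The log2 fold change was 6.18 (SE 0.99, adjusted p = 7.77e-05) with all libraries and 5.70 against P3 alone (adjusted p = 0.0110). With nearly all of the other marrow libraries listed at 0, both values depend on the pseudocount and are no measure of size. Between P1 cells of muscle and marrow the log2 fold change was -4.17 (SE 1.15, adjusted p = 0.0201), lost without muscle P1 replicate 1 or bone marrow P1 replicate 2 (adjusted p = 0.180 and 0.106) and without P2 (adjusted p = 0.0565).

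Adamts13, the protease that trims von Willebrand factor, was listed at 0 in all bone marrow P1 libraries and was at 27.5, 50.1 and 51.4 in P3 and 10.8, 5.02 and 44.1 in P2 (adjusted p = 0.0109). The gene of its substrate, Vwf, had a log2 fold change of -2.25 in marrow P1 (SE 0.78, adjusted p = 0.0429). Adamts19 did not exceed 61.4.

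Of the inhibitors, Timp1 was lower in muscle than in periosteum. It was at 536, 752 and 828 in muscle P1, 172, 185 and 209 in P2, and 680, 849 and 839 in P3. Periosteum held 5695, 5673 and 6362 in P1, 1320, 3987 and 7228 in P2, and 2016, 2027 and 2751 in P3, so that no periosteum library reached down to muscle. On the log2 scale the fold change of muscle against periosteum was -2.92 (SE 0.48, adjusted p = 0.000109).

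In bone marrow Timp1 was at 4701, 5492 and 5429 in P1, at 30.1, 0 and 3.21 in P2, and at 403, 56.2 and 343 in P3. Marrow P1 thus lay at the level of periosteum P1, and every other marrow library at 403 or less. The log2 fold change in marrow P1 was 7.35 (SE 0.72, adjusted p = 7.87e-08), and 4.70 against P3 alone (adjusted p = 1.47e-05). The change was larger than in muscle by 6.50 (SE 1.02, adjusted p = 0.000214). In P1 cells the log2 fold change of muscle was -3.09 against periosteum (SE 0.83, adjusted p = 0.0288) and -2.90 against marrow (SE 0.83, adjusted p = 0.0270). Each of those calls was lost without any 1 of the 6 libraries compared, at adjusted p of 0.0574 to 0.110. In those fits the log2 fold change ran from -3.21 to -2.90 against periosteum and from -3.03 to -2.72 against marrow. A pseudocount of 0.1 also lost both calls (adjusted p = 0.149 and 0.158), and rescaled totals lost the call against marrow (0.0745).

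Timp2, which with Mmp14 forms the complex that activates the Mmp2 precursor, was at 7162, 7067 and 4624 in P1, 2773, 2141 and 1802 in P2, and 2117, 3907 and 2262 in P3 of muscle. In periosteum it was 6491, 4042 and 5829 in P1, 2635, 819 and 815 in P2, and 1692, 5289 and 1841 in P3. In bone marrow it was 1040, 1264 and 4674 in P1, 502, 152 and 416 in P2, and 1325, 246 and 76.3 in P3. Muscle and periosteum were higher than marrow by 2.57 (SE 0.43, adjusted p = 5.69e-05) and 2.20 (SE 0.43, adjusted p = 0.000564). Marrow P1 was higher than P2 and P3 by 2.58 (SE 0.64, adjusted p = 0.00560), and by 1.91 without its replicate 3, which was not called (adjusted p = 0.0780).

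Timp3, the matrix-bound inhibitor, was lower in marrow than in muscle and in periosteum. It was at 19565, 20104 and 17094 in muscle P1, 6796, 6788 and 6173 in P2, and 26457, 21682 and 21952 in P3. Periosteum held 16051, 7763 and 10690 in P1, 3019, 2492 and 1744 in P2, and 16102, 10435 and 8184 in P3. In bone marrow it was 446, 293 and 622 in P1, 523, 127 and 398 in P2, and 2605, 643 and 1222 in P3, so every muscle library was above every marrow library, while marrow P3 replicate 1 lay above replicates 2 and 3 of periosteum P2.

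On the log2 scale the fold change of Timp3 was 4.70 for muscle against marrow (SE 0.26, adjusted p = 2.56e-12) and 3.59 for periosteum against marrow (SE 0.26, adjusted p = 3.90e-10). In P1 cells it was 5.44 (SE 0.45, adjusted p = 2.31e-08) and 4.66 (SE 0.45, adjusted p = 3.84e-07). Between muscle and periosteum it was 1.11 (SE 0.26, adjusted p = 0.00348), under the fold threshold. Timp1 and Timp3 thus had unlike orders in P1 cells, with Timp1 lowest in muscle and Timp3 lowest in marrow. Of the exon bases of Timp3, 21.3% lie under exons of Syn3 on the opposite strand, and reads of the 2 genes cannot be told apart there. A list of 5 fibro-adipogenic genes summed to 25487 to 83422 in muscle and 631 to 4057 in marrow, and its part in the Timp3 result was not tested.

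Timp4 was highest in P3 of muscle and of periosteum. It was at 6430, 3717 and 5808 in muscle P3 and at 2250, 2742 and 764 in periosteum P3, against 305, 766 and 911 in muscle P1 and 5.04, 3.02 and 12.2 in muscle P2. Periosteum held 5.28, 3.71 and 74.5 in P1 and 31.8, 5.15 and 7.27 in P2, and bone marrow 66.3, 14.2 and 94.4 in P1, 30.2, 19.7 and 174 in P2, and 81.8, 1.92 and 5.67 in P3. The log2 fold change of periosteum P1 was -3.43 against P2 and P3 (SE 1.06, adjusted p = 0.0397), and larger in size against P3 alone (adjusted p = 0.00213). In P1 cells muscle was higher than periosteum by 5.52 (SE 1.22, adjusted p = 0.00786), lost in a fit of the compared groups alone (0.0952). The first of these was lost without 1 of 8 libraries, at adjusted p of 0.0505 to 0.168. Those 8 were any of muscle P3, replicates 1 and 2 of periosteum P1 and P3, and replicate 1 of periosteum P2. That call was also lost after quantile normalization (adjusted p = 0.0566) and with rescaled totals (0.0568). The same held with a pseudocount of 0.1 (0.0545) and with no filter (0.0583). A list of 6 endothelial genes was also highest in these groups, with sums of 28185 to 47155 in muscle P3 and 16291 to 35507 in periosteum P3, against 2304 to 12322 over muscle P1 and P2 and 341 to 1858 over periosteum P1 and P2. Its part in the Timp4 result was not tested.

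**Figure D5:**
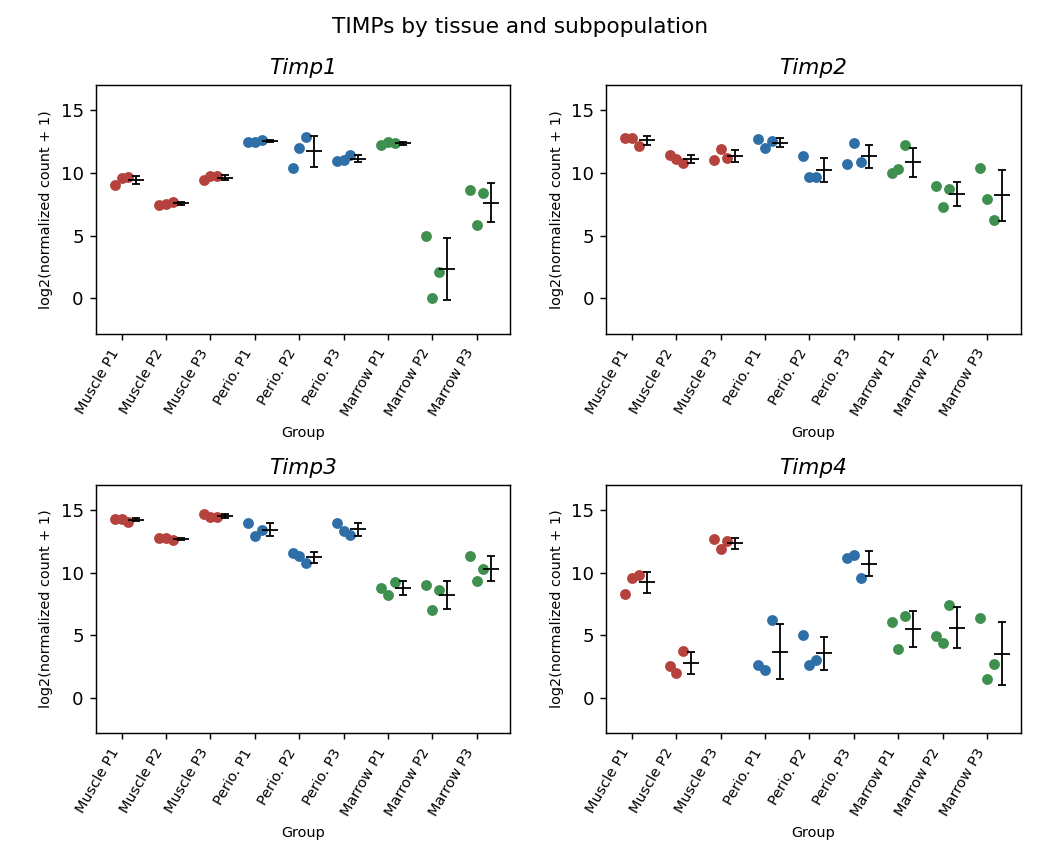
log2(normalized count + 1) (y axis) of the 4 Timp genes in 9 groups (x axis), with 1 point per library in red (muscle), blue (periosteum) or green (bone marrow), and the mean with its SD in black beside them. Timp3 is low in all bone marrow groups, Timp1 is high in periosteum and in bone marrow P1, and Timp4 is highest in muscle P3, at 3717 to 6430.

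Per kilobase of exon, which allows genes to be set side by side, the leading pair differed between groups. In muscle P1 Mmp2 was at 6108 normalized counts per kilobase and Timp3 at 2323, while in bone marrow P1 Mmp2 was at 10875 and Timp1 at 5864. In periosteum P1 Mmp2 (8421) was also followed by Timp1 (6656), and in periosteum P3 Mmp13 led with 4579 before Mmp2 with 3855. In bone marrow P2 and P3 Mmp13 led, at 643 and 1567. These are levels of RNA, and no protein or activity was measured.

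Of the wider system, 5 of 13 measured regulators of these proteases (activating convertases, plasminogen activators and serpins among them) were called higher in muscle than in bone marrow and 0 lower (10.9% and 10.8% of all genes), the urokinase gene Plau by 4.35 (SE 0.60) and the tissue activator gene Plat by 6.98 (SE 0.87). In marrow P1, 5 of the 13 were called higher than in P2 and P3, among them the convertase gene Pcsk6 (6.77, SE 1.12), and 2 lower, Plau (-2.86, SE 0.91) and A2m (-3.54, SE 1.12), where 7.48% of all genes were higher and 11.5% lower. Of 6 ADAMTS-like genes, which encode related proteins without protease activity, 5 were called higher in muscle than in marrow and 0 lower, beside the same shares of all genes. Of 16 genes for matrix substrates, 12 were called higher in muscle than in marrow and 1 lower, and in periosteum 12 were higher than in marrow and 0 lower (4.01% and 16.8% of all genes). Between muscle and periosteum 3 were higher and 6 lower in muscle (17.2% and 3.19% of all genes), the 6 being Acan, Bgn, Col2a1, Comp, Fmod and Fn1, of which Acan and Col2a1 are also in the chondrocyte list. In marrow P1, 10 of the 16 were higher and 1 lower. The regulators named here, Vwf and the collagen genes were chosen after their values were seen.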

How the data were processed

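RNA sequencing libraries were made from sorted cells with a low-input whole-transcript kit that keeps no strand (SMART-Seq v4 with Nextera XT). Per the study's methods, the authors trimmed the reads with Trim Galore, aligned them with STAR and normalized counts with DESeq2. The deposited signal values are normalized counts per gene from the authors. The genome build, annotation and counter are not given in the sources used here. The row for the reporter transgenes was left out of the tests.

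From these values log2(normalized count + 1) was computed for genes with at least 10 in at least 3 libraries (18442 genes). Values were fitted over 9 group means with limma 3.58.1 in R 4.3.3 (lmFit, contrasts.fit and eBayes with a trend), and p-values were adjusted by Benjamini-Hochberg over all genes of a comparison. Calls required an adjusted p below 0.05 and a log2 fold change beyond 1.5 either way. Adjusted p-values in the text come from these limma fits. Fold changes between tissues are differences between means of group means on the log2 scale, so they can differ in direction from the linear means, and they understate changes of low genes. In the report no fold is given between 2 single groups where one is listed at 0 in all libraries, and fitted values over several groups that include such a group depend on the pseudocount. Read depth before normalization is unknown, so no counting interval or floor is given. The scripts were tested on simulated data. Other steps used Python 3.11.15, numpy 2.4.6, pandas 2.3.3 and matplotlib 3.10.9.

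The members and lists were chosen with earlier results of these data known. Values in every library are given for the 24 members whose highest group mean was at least 500, and fold changes for called members whose groups do not overlap, the largest 3 each way, with others added by role. Coordinates are from GENCODE M21 (GRCm38), which held 29732 of 30154 gene identifiers. In it, exons of 13 members overlap exons of other genes on the opposite strand. Among them are Mmp19 (22.3% of its exon bases under Tmem198b) and Adamts8 (10.6% under Gm29724). Alternatives were quantile normalization, rescaled totals, pseudocounts of 0.1 and 5, no filter, a mean of at least 50, a replicate block, fits of the compared groups alone, calls with no fold threshold and leaving out each library. A fit without P2 was chosen after seeing the data.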

Additional observations from a re-analysis of the deposited data

Results flagged for a closer look

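The change of P1 against P2 and P3 differed between bone marrow and muscle for 10 members by a test of the difference itself (limma, adjusted p over all genes, called as in the other comparisons). The difference, marrow minus muscle on the log2 scale, was positive for Mmp2 at 7.03 (adjusted p = 2.71e-09), Timp1 at 6.50 (0.000214), Mmp16 at 5.93 (0.0196), Adamts18 at 5.43 (0.0180), Mmp14 at 3.91 (0.00580) and Adamts2 at 3.18 (0.00614). It was negative for Mmp12 at -3.12 (adjusted p = 0.0495). It was also negative for 3 genes that are listed at 0 in every marrow P1 library, so that their fitted values are no measure of size: Adamts20 at -7.70 (0.0142), Adamts16 at -6.47 (0.0496) and Adamts8 at -5.72 (0.0405). The same holds for the value of Adamts18, which is listed at 0 in every P2 library of both tissues.

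Without the P2 libraries the differences of Mmp14 (0.70, adjusted p = 0.837), Mmp12 (-1.37, adjusted p = 0.646), Adamts18 (adjusted p = 0.0585), Adamts8, Adamts16 and Adamts20 were not called. The Adamts8 call was also lost without any 1 of 13 libraries and the Adamts16 call without any 1 of 18.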

How the results depend on the processing

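With P1 and P3 libraries alone, 2 results turned direction: Mmp14 was -0.66 between muscle and bone marrow and -0.34 between periosteum and bone marrow. In that fit the members called in P1 of periosteum numbered 5, as did those whose P1 change differed between marrow and muscle. With a mean of at least 50, 7 members were called between periosteum and marrow, and 1 each in P1 of muscle, between P1 cells of periosteum and marrow, and for the P1 change of periosteum minus muscle. A pseudocount of 5 called 1 in P1 of muscle, 10 between P1 cells of muscle and periosteum, 4 between P1 cells of periosteum and marrow and 2 for the P1 change of periosteum minus muscle, and a pseudocount of 0.1 called 2 between P1 cells of muscle and periosteum and 6 for the P1 change of marrow minus muscle. Rescaled totals called 1 in P1 of muscle. Fitting the compared groups alone called 2 in P1 of muscle, 1 in P1 of periosteum, 2 between P1 cells of muscle and periosteum and 1 for the P1 change of periosteum minus muscle. The cause of these shifts was not tested. Losses of single calls under these settings are given beside the values of some members only.

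Leaving out 1 library at a time gave 12 to 16 members between muscle and periosteum, 16 to 20 between muscle and marrow, 10 to 15 between periosteum and marrow and 14 to 18 in P1 of the tissues pooled. In P1 of muscle, periosteum and marrow it gave 0 to 1, 4 to 10 and 10 to 20. Between P1 cells it gave 2 to 8 (muscle and periosteum), 7 to 14 (muscle and marrow) and 1 to 5 (periosteum and marrow). For the P1 changes it gave 0 to 2 (periosteum minus muscle) and 5 to 12 (marrow minus muscle). The lowest count for P1 of periosteum came without its P1 replicate 1, and that for P1 of marrow without its P1 replicate 1 or 3.

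Deviations of same-numbered libraries correlated at -0.0592 to 0.0502 over 36 pairs of groups. Whether libraries with the same replicate number came from the same mice was not tested. With a replicate block 14, 19 and 11 members were called between tissues, 16 in P1 of the tissues pooled, 0, 9 and 18 in P1 of muscle, periosteum and marrow, 6, 13 and 2 between P1 cells, and 0 and 8 for the P1 changes. With 3 libraries a group and an unknown read depth, members at low values have wide errors, and a call that was not made does not show that levels were alike.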
